A study of Mus musculus with 10 samples.

Results

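The phase II conjugation enzymes of the liver attach a small polar group to drugs, hormones, bile pigments and bile acids. Their genes were taken by symbol, as those whose names begin with Gsta, Gstk, Gstm, Gsto, Gstp, Gstt, Gstz or Mgst, with Ugt1 to Ugt3, or with Sult1 to Sult5, without the pseudogenes that carry -ps in their name. This gave 65 of the 55291 genes in the count table, of which 25 are glutathione transferases (Gst and Mgst), 21 are glycosyltransferases (Ugt) and 19 are sulfotransferases (Sult). Of the 65 genes, 55 had enough counts to be tested among 17015 tested genes, 23 of them Gst or Mgst, 18 Ugt and 14 Sult. The 10 genes left out were Gsto2, Gstt4, Sult1c1, Sult2a4, Sult2a6, Sult2b1, Sult4a1, Ugt1a8, Ugt2a1 and Ugt2a2, and the highest value among them in any mouse was 0.256 CPM (counts per 1000000 counts of the normalized library), for Sult2b1.

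Glutathione transferases couple reactive compounds to the thiol glutathione, and several of them also isomerize or reduce products of lipid oxidation. The UDP-glucuronosyltransferases of the endoplasmic reticulum add glucuronic acid from its UDP-bound form to bilirubin, steroids and phenols, and sulfotransferases of the cytosol add sulfate from the donor PAPS to phenols, steroids and bile acids. Hepatocytes hold most of the liver's conjugating capacity, and sensors such as CAR, PXR, AhR and NRF2 are known to raise the expression of many of these genes.

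RNA was sequenced from the right liver lobe of 10 female mice, aged 16 to 20 weeks at virus injection. All of them carried a Cas9 gene behind a Lox-Stop-Lox cassette and received an AAV8 virus with a U6-driven guide and a Cre gene under the TBG promoter. This promoter is used to limit Cre to hepatocytes, so other liver cells are meant to keep an unedited Bap1 gene. Which cells were edited cannot be read from these data, since the RNA of all cells in the lobe was measured together. Each library held 3.30e7 to 5.22e7 estimated counts. A floor of 3 counts was used, and 3 counts or fewer in a library were not told apart from 0. This floor was worth 0.0511 to 0.112 CPM and covers counting error only. The NTC-Veh group (n = 2) had a non-targeting guide and the sgBap1-Veh group (n = 2) a guide against Bap1, and both were injected with olive oil on day 10 after the virus. The NTC-CCl4 (n = 3) and sgBap1-CCl4 (n = 3) groups had the same guides and received carbon tetrachloride (CCl4), 1 part in 9 parts of olive oil, on the same day. Injections were intraperitoneal at 10 µL per g of body weight, and livers were taken 48 hours later. The labels do not say whether equal replicate numbers pair mice across groups, so mice were taken as independent. CCl4 is a solvent that cytochrome P450 enzymes of the hepatocytes around the central veins turn into a toxic radical.

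Bap1, the gene targeted by the guide, was measured first. NTC mice had 34.8 and 34.8 CPM with vehicle and 30.1, 31.5 and 29.5 with CCl4, and sgBap1 mice had 17.6 and 19.5 with vehicle and 17.0, 21.8 and 19.1 with CCl4. Every sgBap1 mouse was below every NTC mouse. By edgeR's quasi-likelihood test with Benjamini-Hochberg adjustment over all tested genes, Bap1 fell in sgBap1 livers with vehicle (log2 fold change -0.91, SE 0.118, adjusted p = 0.0172) as well as with CCl4 (-0.65, SE 0.0946, adjusted p = 0.0307). Unless DESeq2 is named, every adjusted p in the text comes from this two-sided test of edgeR. A gene is said to have risen or fallen when its adjusted p is under 0.05. Without NTC-Veh 2, sgBap1-Veh 1 or sgBap1-Veh 2 the adjusted p of edgeR's test with vehicle was 0.0992, 0.115 and 0.051. With CCl4 it was 0.05, 0.147, 0.0782, 0.0838, 0.0933 and 0.0549 without NTC-Veh 1, NTC-CCl4 1, NTC-CCl4 2, NTC-CCl4 3, sgBap1-CCl4 1 and sgBap1-CCl4 3. The gene lies on chromosome 14 of GRCm38 from 31251450 to 31259944 on the + strand, and the reads left in the sgBap1 livers were not assigned to edited or unedited cells.

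The 1st question was how CCl4 injury changed the conjugation genes in livers with a control guide. Of the 55 tested genes, 35 fell and 4 rose in NTC-CCl4 against NTC-Veh livers, beside 26.3% of all tested genes that fell and 27.5% that rose. The genes that rose were Gsta1, Gstp1, Gstp2 and Mgst3. The median log2 fold change of the 55 genes was -1.22, beside 0.0283 for all 17015. Of the 35, 31 fell by more than 2-fold and 15 by more than 4-fold. In sgBap1-CCl4 against sgBap1-Veh livers 37 genes fell and 3 rose (Gsta1, Gstp1 and Ugt2b37), beside 27.7% and 29% of all tested genes, with a median of -1.56 beside 0.0393. Of these 37, 31 fell by more than 2-fold and 21 by more than 4-fold. Shares of all tested genes past these fold cuts are not given. The same 34 genes fell in both genotypes and the same 2 rose, and these comparisons have no mouse in common. The share of all tested genes called in both is not given, so these counts are not read as particular to conjugation genes.

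**Figure D1:**
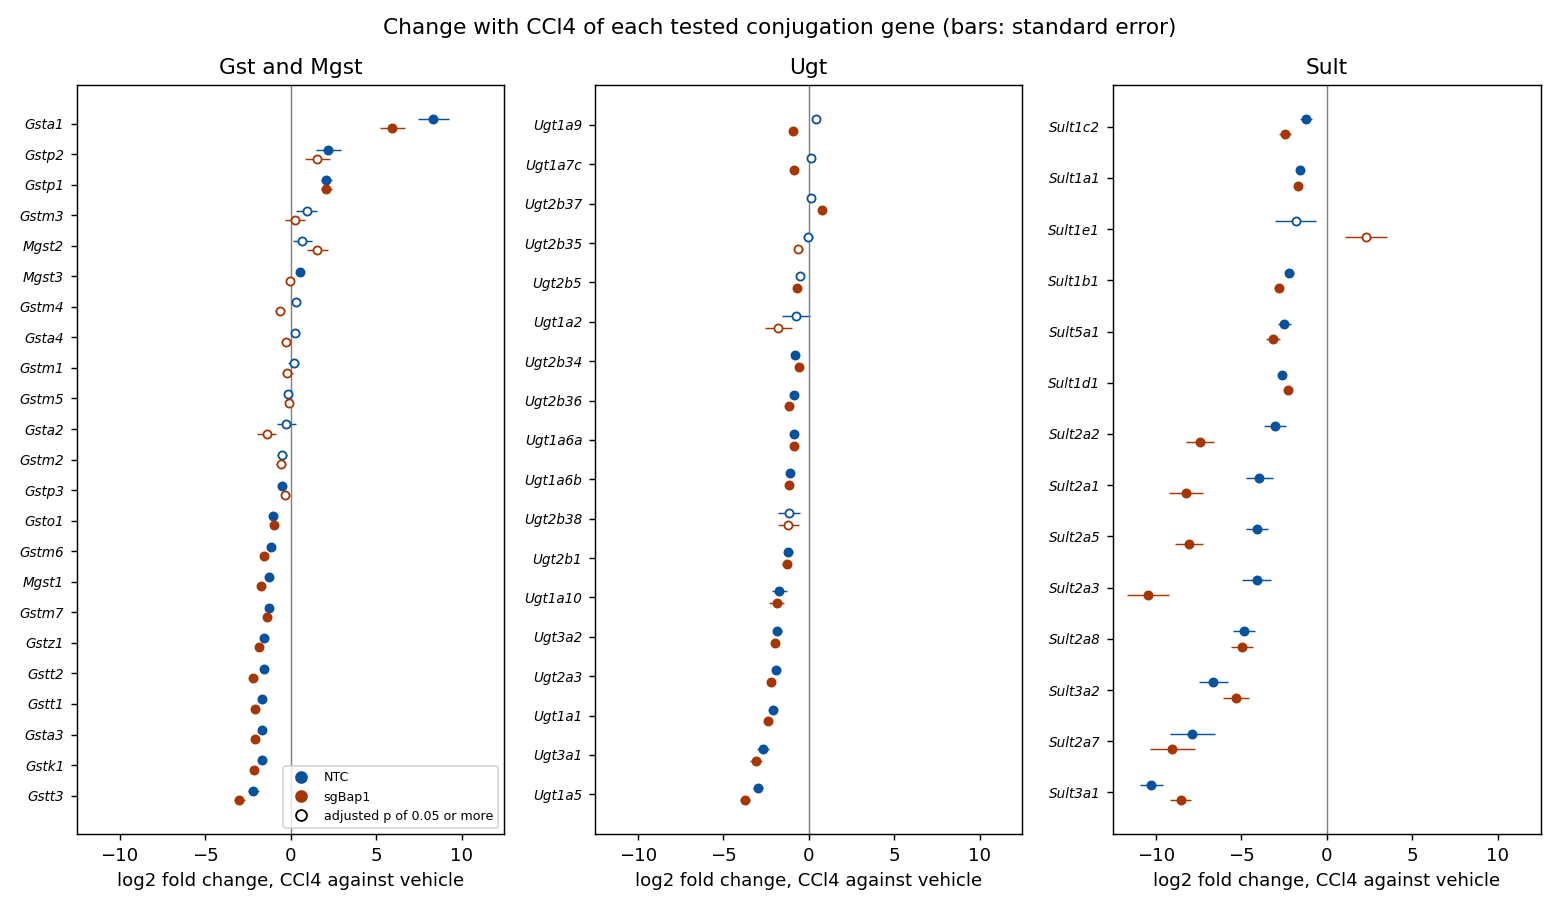
The effect of CCl4 as a log2 fold change (horizontal axis) is plotted for each of the 55 tested conjugation genes in NTC (blue) and sgBap1 (brown) livers, with bars of 1 standard error and open circles where the adjusted p of edgeR's quasi-likelihood test was 0.05 or more. Most Sult genes lie further left than the Ugt genes, Gsta1 stands alone on the far right, and the fitted values of Sult2a3, Sult2a5 and Sult2a7 in sgBap1 livers are no bounds because CCl4-treated mice there had 3 counts or fewer.

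The split between families was wide. Of the tested Sult genes, 13 of 14 fell in each genotype, with medians of -3.49 in NTC and -5.13 in sgBap1 livers. Genes with 3 counts or fewer in every mouse of 1 group can be set to their bound. In NTC livers this applied to 0 of the tested Sult genes. In sgBap1 livers it applied to 3, whose bounds also lie below the median, so it could not move. Of the Ugt genes, 11 of 18 fell and 0 rose in NTC livers (edgeR; 12 had an unadjusted p under 0.05, and DESeq2 called the same numbers), and 14 fell and 1 rose in sgBap1 livers, with medians of -0.99 and -1.18. Of the Gst and Mgst genes, 11 of 23 fell and 4 rose in NTC livers and 10 fell and 2 rose in sgBap1 livers, with medians of -0.48 and -0.64. Scaling by library size alone in place of TMM put the median of all genes at 0.50 with CCl4 in NTC and 0.52 in sgBap1 livers, with 80.7% and 78.5% of all calls higher in place of 51.1% and 51.2%. Under it the Gst median in NTC livers was 0.000603 in place of -0.48, so its sign turned, and it still lay below the median of all genes. Of the Gst and Mgst genes, 10 then fell and 5 rose in each genotype. The Ugt and Sult medians kept their sign, at -0.51 and -2.98 in NTC and -0.71 and -4.67 in sgBap1 livers, and 9 Ugt genes then fell and 3 rose in NTC livers (Ugt1a7c, Ugt1a9 and Ugt2b37). Of the 55 genes, 31 then fell and 8 rose in NTC livers and 34 fell and 6 rose in sgBap1 livers, beside 10492 and 10946 of all 17015 genes that then passed, 80.7% and 78.5% of them higher.

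Markers of cell types moved with these results. Of 11 tested hepatocyte markers, 8 fell and 0 rose in NTC livers and 5 fell and 1 rose in sgBap1 livers. Their summed level was 173800 and 141700 CPM in NTC-Veh mice, 127900 and 133400 in sgBap1-Veh mice, 93840, 98380 and 89920 in NTC-CCl4, and 102600, 80160 and 102600 in sgBap1-CCl4 mice. Alb, for albumin, was the most abundant of them in every mouse, and 0 of them were without counts in any mouse. Of 10 markers of recruited monocytes and macrophages, 10 rose in each genotype, and their sum, led by Lyz2, was 116 and 103 CPM in NTC-Veh mice, 179 and 157 in sgBap1-Veh mice, 795, 928 and 957 in NTC-CCl4, and 1066, 1226 and 865 in sgBap1-CCl4 mice. Of 8 markers of dividing cells, 8 rose in each genotype, and their sum, led by Mki67, was 8.28 and 7.93 CPM in NTC-Veh mice, 16.1 and 12.01 in sgBap1-Veh mice, 421, 228 and 368 in NTC-CCl4, and 318, 409 and 278 in sgBap1-CCl4 mice. Every marker of both lists had counts in every mouse.

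Other cell types were measured in the same way. Of 10 stellate cell markers, 8 rose in NTC and 7 in sgBap1 livers, and their sum, led by Dcn or Col3a1, was 257 and 320 CPM in NTC-Veh mice, 357 and 309 in sgBap1-Veh mice, 697, 885 and 707 in NTC-CCl4, and 827, 1849 and 635 in sgBap1-CCl4 mice. Of 7 neutrophil markers 6 were tested and 6 rose in each genotype, and the sum of the 7, led by Csf3r, was 10.94 and 5.85 CPM in NTC-Veh mice, 12.19 and 9.43 in sgBap1-Veh mice, 29.5, 38.8 and 38.9 in NTC-CCl4, and 40.9, 42.3 and 32.5 in sgBap1-CCl4 mice, with 1 of the 7 at 0 in NTC-Veh 2 and in both sgBap1-Veh mice. Of 9 markers of sinusoidal endothelial cells, 5 rose in NTC livers and 3 rose and 2 fell in sgBap1 livers, and their sum, led by Stab1 or Fcgr2b, was 283 and 262 CPM in NTC-Veh mice, 374 and 272 in sgBap1-Veh mice, 382, 356 and 389 in NTC-CCl4, and 347, 392 and 381 in sgBap1-CCl4 mice. Of 10 Kupffer cell markers, 4 rose in NTC livers and 2 rose and 4 fell in sgBap1 livers, and their sum, led by Cd5l or Marco, was 340 and 219 CPM in NTC-Veh mice, 662 and 442 in sgBap1-Veh mice, 706, 574 and 1026 in NTC-CCl4, and 547, 777 and 636 in sgBap1-CCl4 mice. Of 6 B cell markers, 4 rose in NTC and 1 in sgBap1 livers, with sums, led by Ighm, of 18.5 and 10.81, 39.9 and 28.3, 42.1, 22 and 33.5, and 26.4, 28.3 and 26.7 CPM in the same order of mice. Of 8 T or NK cell markers, 3 rose in NTC and 0 in sgBap1 livers, with sums, led by Trbc2, Nkg7, Cd3e or Cd4, of 6.21 and 2.91, 9.66 and 9.88, 9.06, 7.36 and 11.14, and 6.59, 9.86 and 9.57 CPM. Of 6 red blood cell markers, 4 rose in NTC and 0 in sgBap1 livers, with sums, led by Hbb-bs, of 850 and 581, 675 and 824, 890, 2469 and 1657, and 1085, 877 and 814 CPM. Of 8 cholangiocyte markers, 2 rose and 1 fell in NTC livers and 2 rose and 2 fell in sgBap1 livers, with sums, led by Cldn3, of 108 and 114, 102 and 83.0, 127, 108 and 118, and 104, 96.6 and 85.8 CPM. Of 5 mesothelium markers, 0 passed in either genotype. Their sums, led by Msln, Upk3b, Wt1 or Lrrn4, were 0.490 and 14.63 CPM in NTC-Veh and 5.79 and 11.19 in sgBap1-Veh mice. With CCl4 they were 4.01, 5.82 and 13.46 in NTC and 7.68, 18.02 and 6.48 in sgBap1 mice. Outside the neutrophil list, 0 markers of these lists were without counts in any mouse. The part of these shifts in the fall of the conjugation genes was not tested, and in RNA of whole tissue fewer hepatocytes and less RNA per hepatocyte cannot be told apart.

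Gsta1, an alpha class glutathione transferase on chromosome 9 (78230656 to 78242684), rose most. It had 0.136 and 0.111 CPM in NTC-Veh mice, 0.942 and 1.05 in sgBap1-Veh mice, 23.2, 70.4 and 28.7 in NTC-CCl4, and 41.5, 80.0 and 63.2 in sgBap1-CCl4 mice. All 6 CCl4-treated mice were above all 4 vehicle mice. It rose on the log2 scale by 8.34 (SE 0.913, adjusted p = 0.000156 by edgeR) in NTC and 5.96 (SE 0.702, adjusted p = 0.000216) in sgBap1 livers. Of all stretches of 50 bases in its transcripts, 90.5% occur in other genes and 75.7% in Gm3776, so that the counts of this pair are uncertain. Gm3776, chosen after its values were seen, had 0.163 and 0 CPM in NTC-Veh and 15.95, 50.7 and 17.9 in NTC-CCl4 mice, and rose too (log2 fold change 8.38, SE 1.06, adjusted p = 0.000368 by edgeR's test).

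The start regions of Gsta1, which rose most, and of Sult3a1, which fell most among the named genes in NTC livers, are shown as the ends of the range. They are RefSeq windows of GRCm38.p6, from 250 bases before to 50 bases after the gene start, available for 57 of the 65 genes. The letters TTCNNNGAA, known from STAT5 sites, were searched on both strands and are printed in capitals in the lines below, which read 5′ to 3′. They occur in the windows of 6 of these genes (Gsta1, Gstm6, Mgst1, Mgst2, Sult3a1 and Ugt1a6a) and in those of 9.55% of all genes with a window. TGACNNNGC, known from NRF2 sites, and GCGTG, known from AhR sites, occur in the windows of 4 and 12 conjugation genes and in those of 14% and 35.2% of all genes. A match describes the sequence and not a bound site. The window of Gsta1 is chr9:78230419-78230718 and that of Sult3a1 chr10:33857472-33857771, both on the + strand.
Gsta1: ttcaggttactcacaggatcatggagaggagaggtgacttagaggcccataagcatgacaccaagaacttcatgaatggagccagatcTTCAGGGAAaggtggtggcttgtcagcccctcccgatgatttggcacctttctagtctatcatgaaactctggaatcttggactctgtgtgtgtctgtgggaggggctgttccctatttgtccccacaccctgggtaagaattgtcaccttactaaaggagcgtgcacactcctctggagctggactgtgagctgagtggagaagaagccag
Sult3a1: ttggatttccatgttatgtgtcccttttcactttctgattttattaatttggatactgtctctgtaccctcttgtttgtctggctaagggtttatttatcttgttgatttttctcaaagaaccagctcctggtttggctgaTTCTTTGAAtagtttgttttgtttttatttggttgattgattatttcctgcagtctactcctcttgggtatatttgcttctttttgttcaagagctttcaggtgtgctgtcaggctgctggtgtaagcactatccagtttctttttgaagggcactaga

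Gstp1, the abundant pi class transferase on chromosome 19 (4035407 to 4037985), had 265 and 195 CPM in NTC-Veh mice, 224 and 302 in sgBap1-Veh mice, 866, 1405 and 659 in NTC-CCl4, and 1015, 1167 and 1165 in sgBap1-CCl4 mice. The treated and vehicle mice did not overlap. It rose by a log2 fold change of 2.09 in NTC (SE 0.309, adjusted p = 0.000329 by edgeR) and 2.09 in sgBap1 livers (SE 0.309, adjusted p = 0.000307). Its neighbour Gstp2, with 54.3% of its stretches of 50 bases shared, had 3.21 and 3.08 CPM in NTC-Veh and 10.8, 25.04 and 7.495 in NTC-CCl4 mice. It rose in NTC livers only by a narrow margin (log2 fold change 2.21, SE 0.744, adjusted p = 0.0374 by edgeR), and without NTC-Veh 1, NTC-Veh 2, NTC-CCl4 2 or sgBap1-CCl4 2 the adjusted p was 0.143, 0.153, 0.0757 and 0.0553, and with no filter beyond 1 count it was 0.0977. In sgBap1 livers Gstp2 had 2.50 and 7.82 CPM with vehicle and 11.1, 9.69 and 24.4 with CCl4 (log2 fold change 1.57, adjusted p = 0.0974 by edgeR). With library size alone Gstp2 rose in sgBap1 livers.

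Mgst3, a microsomal transferase that also acts on leukotrienes, had 17.5 and 15.9 CPM in NTC-Veh and 21.2, 29.3 and 21.8 in NTC-CCl4 mice, and rose slightly (log2 fold change 0.53, SE 0.190, adjusted p = 0.0379 by edgeR). This call too was lost without NTC-Veh 1, NTC-Veh 2 or NTC-CCl4 2, with adjusted p of 0.0974, 0.182 and 0.114, and with no filter beyond 1 count (0.0572). In sgBap1 livers Mgst3 had 22.4 and 18.0 CPM with vehicle and 17.6, 17.4 and 24.5 with CCl4. With library size alone Mgst3 rose in sgBap1 livers, as did Mgst2. The interaction of Mgst3, the difference between the log2 fold changes of the genotypes, was -0.56 (adjusted p = 0.502 by edgeR). Gstp3, chosen after its values were seen, with 24.3 and 19.1 CPM in NTC-Veh and 14.9, 16.9 and 13.1 in NTC-CCl4 mice, fell in NTC livers (log2 fold change -0.53, adjusted p = 0.0102 by edgeR). In sgBap1 livers its treated mice were also below its vehicle mice (-0.35, adjusted p = 0.0592), and the interaction was 0.18 (adjusted p = 0.833). Without NTC-Veh 1 the adjusted p of Gstp3 in NTC livers was 0.129, and with library size alone 0.75.

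Mgst1 and Gstm1 had the most reads of the glutathione transferase genes, and of them Mgst1 alone fell. Mgst1, the main microsomal transferase, had 2662 and 2075 CPM in NTC-Veh mice, 2400 and 3057 in sgBap1-Veh mice, 986, 1142 and 873 in NTC-CCl4, and 781, 677 and 1055 in sgBap1-CCl4 mice. It fell without overlap in both genotypes, by log2 fold changes of -1.24 (SE 0.210, adjusted p = 0.000615 by edgeR) and -1.70 (SE 0.211, adjusted p = 7.42e-05). Gstm1, of the mu class, had 1227 and 1010 CPM in NTC-Veh mice, 1639 and 1317 in sgBap1-Veh mice, 970, 1957 and 866 in NTC-CCl4, and 1090, 1347 and 1432 in sgBap1-CCl4 mice. These groups overlapped, and neither log2 fold change passed the test (0.18 and -0.20, adjusted p = 0.664 and 0.616 by edgeR). Gstk1, a transferase of mitochondria and peroxisomes on chromosome 6 (42245935 to 42250447), had 102 and 90.5 CPM in NTC-Veh mice, 102 and 115 in sgBap1-Veh mice, 29.3, 26.4 and 33.6 in NTC-CCl4, and 25.4, 20.6 and 27.0 in sgBap1-CCl4 mice. It fell by -1.70 (SE 0.133, adjusted p = 4.86e-06 by edgeR) and -2.16 (SE 0.133, adjusted p = 1.39e-06). Among the other Gst genes, Gsta3, Gstm6, Gstm7, Gsto1, Gstt1, Gstt2, Gstt3 and Gstz1 fell in both genotypes, from -2.18 for Gstt3 to -1.05 for Gsto1 in NTC livers.

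In each treated group 1 mouse had the highest value of many of these genes. The same counts over all tested genes are not given, so this may not be particular to the conjugation genes. The 3rd sgBap1-CCl4 mouse had the highest CPM of its group in 37 of the 55 tested genes, 14 of 18 Ugt genes among them, and the 2nd had the lowest in 31. The 2nd NTC-CCl4 mouse had the highest of its group in 36 of 55. It had the highest CPM of the 3 in 19 of the 23 tested Gst genes, in 11 of 18 Ugt genes and in 6 of 14 Sult genes. For Gstm3, another mu class gene, chosen after its values were seen, the values were 45.5, 145.9 and 53.1 CPM in NTC-CCl4 mice. In the same mouse Gclc, for the catalytic subunit of the enzyme that limits glutathione synthesis, had 732 CPM against 292 and 258 in the other NTC-CCl4 mice. The sum of 6 red blood cell markers, led by Hbb-bs, was 2469 CPM there against 890 and 1657, and the sum of dividing cell markers was the lowest of the 3. Without this mouse 40 of the tested genes changed in NTC livers in place of 39, with Gstm2, Ugt2b35 and Ugt2b5 added and Gstp2 and Mgst3 lost.

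**Figure D2:**
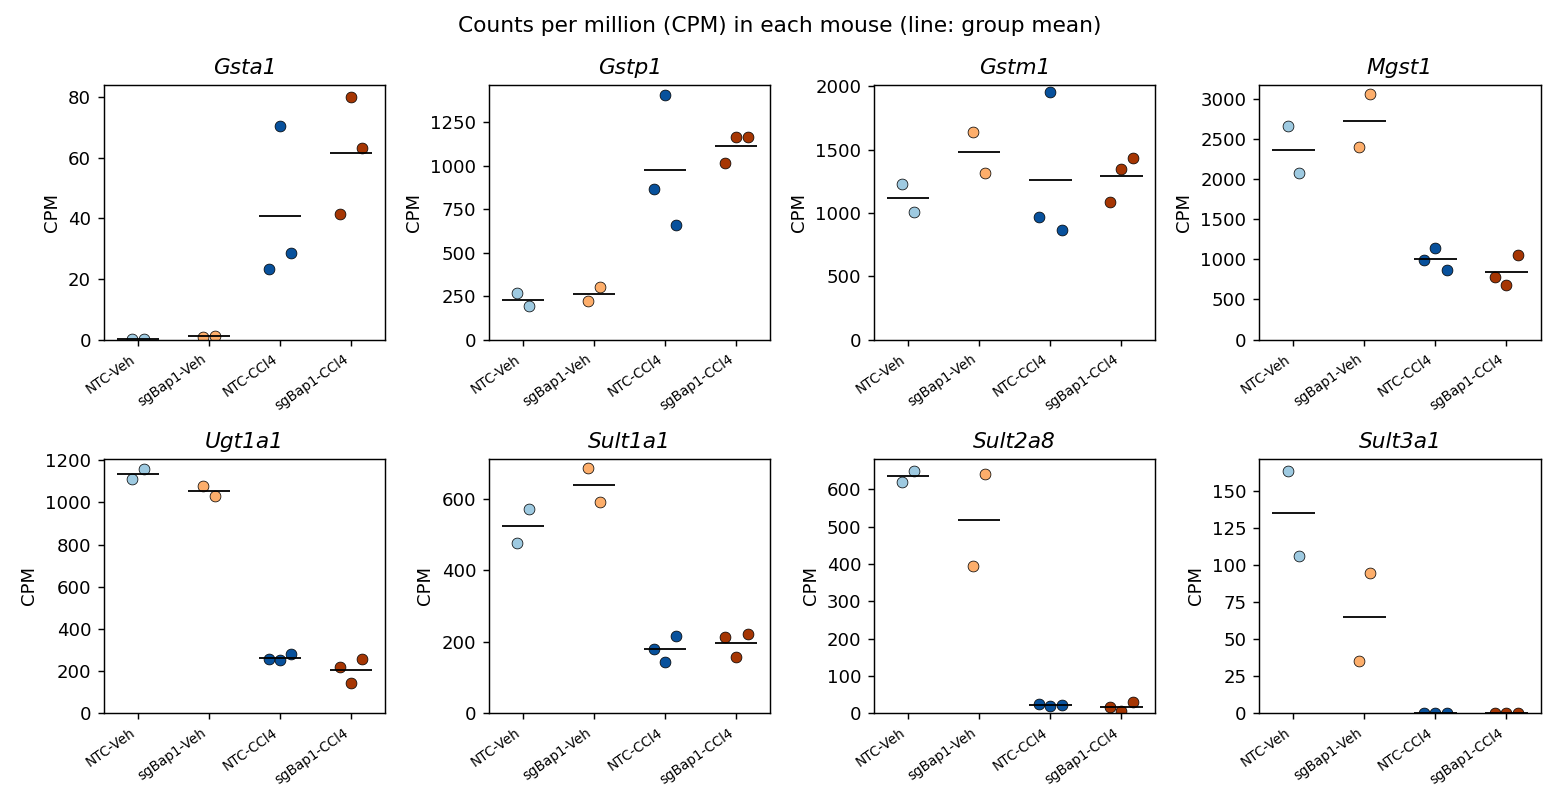
CPM (vertical axes, each starting at 0) of 8 conjugation genes are plotted for each mouse of the 4 groups, with a line at each group's mean. Gsta1 and Gstp1 are high and Mgst1, Ugt1a1, Sult1a1, Sult2a8 and Sult3a1 low in all 6 CCl4-treated mice, while the Gstm1 values of treated and vehicle mice overlap and the 2nd NTC-CCl4 mouse is highest at 1957.

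Ugt1a1, the enzyme that conjugates bilirubin, had 1109 and 1157 CPM in NTC-Veh mice, 1076 and 1033 in sgBap1-Veh mice, 256, 253 and 283 in NTC-CCl4, and 219, 144 and 255 in sgBap1-CCl4 mice. Every treated mouse was below every vehicle mouse, and Ugt1a1 fell by log2 fold changes of -2.10 (SE 0.197, adjusted p = 1.39e-05 by edgeR) in NTC and -2.36 (SE 0.198, adjusted p = 6.72e-06) in sgBap1 livers. The Ugt1a genes of chromosome 1 each join a first exon of their own to later exons that all of them use, and 58.2% of the 50-base stretches of Ugt1a1 are shared, so the division of reads among them is an estimate. Their sum over 9 genes, which does not depend on that division, was 1813 and 1944 CPM in NTC-Veh mice, 2086 and 1937 in sgBap1-Veh mice, 578, 600 and 578 in NTC-CCl4, and 507, 414 and 635 in sgBap1-CCl4 mice. Taken as 1 gene, the sum fell by -1.68 (SE 0.163, adjusted p = 1.69e-05 by edgeR) and -1.96 (SE 0.164, adjusted p = 6.49e-06).

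Within the Ugt1a locus the members moved by different amounts. Ugt1a5 had 264 and 372 CPM in NTC-Veh mice, 481 and 329 in sgBap1-Veh mice, 43.0, 32.7 and 48.1 in NTC-CCl4, and 27.8, 21.7 and 42.0 in sgBap1-CCl4 mice. It fell most of all tested Ugt genes in both genotypes, by -2.95 (SE 0.301, adjusted p = 4.71e-05 by edgeR) and -3.73 (SE 0.308, adjusted p = 1.33e-05). Ugt1a6a and Ugt1a6b, which conjugate simple phenols, fell by -0.86 and -1.11 in NTC and by -0.86 and -1.14 in sgBap1 livers. Ugt1a9, which also acts on phenols, was higher in all 3 treated NTC mice without passing the test, with 84.7 and 61.7 CPM in NTC-Veh and 110, 92.2 and 90.2 in NTC-CCl4 mice (log2 fold change 0.41, SE 0.177, adjusted p = 0.0741 by edgeR). It did pass with library size alone and without NTC-Veh 1 or sgBap1-CCl4 3. Its share of the Ugt1a sum was 4.67% and 3.17% in NTC-Veh, 9.09% and 9.27% in sgBap1-Veh, 18.9%, 15.4% and 15.6% in NTC-CCl4, and 16.6%, 21.6% and 18.9% in sgBap1-CCl4 mice.

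In the Ugt2 subfamily the gene with the most reads was lower with CCl4 by less than 2-fold. Ugt2b5, which acts on steroids, had 727 and 697 CPM in NTC-Veh mice, 781 and 816 in sgBap1-Veh mice, 471, 669 and 375 in NTC-CCl4, and 512, 388 and 616 in sgBap1-CCl4 mice. All treated mice were below all vehicle mice, but the log2 fold change passed only in sgBap1 livers (-0.66, SE 0.237, adjusted p = 0.0362 by edgeR), and in NTC livers it was -0.49 (SE 0.238, adjusted p = 0.105). The call in sgBap1 livers was lost without NTC-Veh 1, NTC-Veh 2, sgBap1-Veh 1, sgBap1-Veh 2, NTC-CCl4 1, sgBap1-CCl4 1 or sgBap1-CCl4 2, with adjusted p of 0.0537, 0.0536, 0.105, 0.137, 0.0503, 0.0739 and 0.0912, and it was 0.434 with library size alone and 0.0637 with no filter beyond 1 count. Ugt2b36 had 517 and 465 CPM in NTC-Veh mice, 610 and 685 in sgBap1-Veh mice, 261, 334 and 231 in NTC-CCl4, and 289, 229 and 357 in sgBap1-CCl4 mice. Treated and vehicle mice did not overlap, and Ugt2b36 fell by -0.83 (SE 0.196, adjusted p = 0.00455 by edgeR) and -1.15 (SE 0.195, adjusted p = 0.000606), the first of which was 0.0738 with library size alone. Ugt3a1, of a subfamily that uses sugars other than glucuronic acid, fell further, by -2.68 (SE 0.359) and -3.09 (SE 0.363). Its values were 102 and 88.0 CPM in NTC-Veh mice, 92.1 and 125 in sgBap1-Veh mice, 14.5, 15.6 and 14.3 in NTC-CCl4, and 11.3, 7.05 and 20.2 in sgBap1-CCl4 mice.

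Ugt2b37 was the 1 Ugt gene that rose, in sgBap1 livers, and with library size alone it passed in NTC livers as well. It had 2.88 and 4.19 CPM in sgBap1-Veh and 6.83, 6.37 and 4.91 in sgBap1-CCl4 mice, without overlap, and 5.94 and 4.27 in NTC-Veh and 6.74, 4.87 and 5.23 in NTC-CCl4 mice, with overlap. The log2 fold change was 0.78 (SE 0.243, adjusted p = 0.0189 by edgeR) in sgBap1 and 0.14 in NTC livers, and the interaction was 0.64 (adjusted p = 0.551). Without sgBap1-Veh 1 or sgBap1-CCl4 1 the adjusted p in sgBap1 livers was 0.165 and 0.0583. Ugt1a7c, chosen after its values were seen, at 8.18 and 9.66 CPM in sgBap1-Veh and 5.13, 5.68 and 3.72 in sgBap1-CCl4 mice, fell in sgBap1 livers (-0.88, adjusted p = 0.00429 by edgeR) and was at 0.16 in NTC livers. With library size alone its adjusted p in sgBap1 livers was 0.173.

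The sulfotransferases fell furthest. Sult3a1, an amine sulfotransferase of female mouse liver on chromosome 10 (33857721 to 33879532), had 164 and 106 CPM in NTC-Veh mice, 35.6 and 94.8 in sgBap1-Veh mice, 0.107, 0.150 and 0.0521 in NTC-CCl4, and 0.170, 0.0514 and 0.319 in sgBap1-CCl4 mice. The lowest vehicle mouse stood far above the highest treated mouse. Its fold change on the log2 scale was -10.25 (SE 0.657, adjusted p = 8.35e-06 by edgeR) in NTC and -8.54 (SE 0.609, adjusted p = 1.28e-05) in sgBap1 livers. The treated mice had only 5, 8 and 2 counts of Sult3a1 in NTC and 10, 3 and 15 in sgBap1 livers, so the size of these changes is uncertain. Sult2a8, which sulfates bile acids, had 620 and 650 CPM in NTC-Veh mice, 396 and 641 in sgBap1-Veh mice, 24.5, 18.8 and 22.7 in NTC-CCl4, and 15.8, 4.90 and 29.7 in sgBap1-CCl4 mice. It fell in every treated mouse, by -4.85 (SE 0.638, adjusted p = 0.000404 by edgeR) and -4.95 (SE 0.641, adjusted p = 0.000347). Sult1a1, the main phenol sulfotransferase, had 477 and 570 CPM in NTC-Veh mice, 685 and 592 in sgBap1-Veh mice, 181, 143 and 215 in NTC-CCl4, and 213, 157 and 221 in sgBap1-CCl4 mice, and fell by -1.54 (SE 0.193, adjusted p = 8.37e-05 by edgeR) and -1.70 (SE 0.193, adjusted p = 4.30e-05).

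Sult2a1 and Sult2a2 of chromosome 7, which sulfate steroids and bile acids, had their lowest values in treated sgBap1 livers, although neither passed between the treated genotypes (adjusted p = 0.292 and 0.139 by edgeR). Sult2a2 had 106 and 49.6 CPM in NTC-Veh mice, 180 and 179 in sgBap1-Veh mice, 5.76, 4.92 and 18.1 in NTC-CCl4, and 0.409, 1.73 and 1.02 in sgBap1-CCl4 mice. No 2 of the 4 groups overlapped, and Sult2a2 fell with CCl4 by -3.04 (SE 0.649, adjusted p = 0.00581 by edgeR) in NTC and -7.41 (SE 0.798, adjusted p = 0.000174) in sgBap1 livers. Sult2a1 had 57.8 and 29.8 CPM in NTC-Veh mice, 126 and 103 in sgBap1-Veh mice, 1.17, 1.07 and 6.66 in NTC-CCl4, and 0.102, 0.805 and 0.213 in sgBap1-CCl4 mice, in the same order of groups. It fell by -3.94 (SE 0.794, adjusted p = 0.00438 by edgeR) and -8.22 (SE 0.988, adjusted p = 0.000311). The pair shares sequence, with 62.1% of the 50-base stretches of Sult2a2 and 33.2% of those of Sult2a1 found in other genes, so that the 2 measurements are not independent. Sult2a3 and Sult2a5 were chosen after their values were seen. Sult2a3 had 4.76 and 3.29 CPM in sgBap1-Veh mice and 0 in all 3 sgBap1-CCl4 mice, which with 3 counts per library as the floor makes it at least 72.7-fold lower. Sult2a5 had 4.01 and 4.04 CPM in sgBap1-Veh mice and 0, 0.0342 and 0 in sgBap1-CCl4 mice, and Sult2a7 had 2.61 and 19.6 CPM and then 0.0341, 0.0171 and 0. These last values come from 3 counts or fewer per mouse, so no fold is given for them. In NTC livers Sult2a7 had 11.2 and 3.24 CPM with vehicle and 0, 0.0751 and 0 with CCl4.

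Sult1d1, a sulfotransferase of catecholamines on chromosome 5 (87554645 to 87569027), had the smallest p of all tested conjugation genes. It had 165 and 178 CPM in NTC-Veh mice, 188 and 199 in sgBap1-Veh mice, 26.7, 28.7 and 29.9 in NTC-CCl4, and 39.1, 38.9 and 41.5 in sgBap1-CCl4 mice. The mice of each group lay close together, and Sult1d1 fell by -2.59 (SE 0.0849, adjusted p = 1.16e-07 by edgeR) in NTC and -2.28 (SE 0.0841, adjusted p = 1.71e-07) in sgBap1 livers. Sult5a1 had 15.1 and 14.7 CPM in NTC-Veh mice, 20.4 and 18.4 in sgBap1-Veh mice, 3.03, 1.60 and 3.49 in NTC-CCl4, and 2.35, 1.13 and 3.21 in sgBap1-CCl4 mice, and fell by -2.47 (SE 0.388) and -3.13 (SE 0.392). Sult1b1, Sult1c2 and Sult3a2 fell in both genotypes as well. The call of Sult1c2 in NTC livers (-1.22, adjusted p = 0.0180 by edgeR) was lost without NTC-Veh 2 or NTC-CCl4 3, at adjusted p of 0.227 and 0.0574, and was 0.0835 with library size alone and 0.0519 with no filter beyond 1 count. The 14th tested gene, the estrogen sulfotransferase Sult1e1, also chosen after its values were seen, had 2.80 and 0.194 CPM in NTC-Veh mice, 0.215 and 1.68 in sgBap1-Veh mice, 0.171, 0.620 and 0.495 in NTC-CCl4, and 2.28, 8.82 and 2.27 in sgBap1-CCl4 mice. Its log2 fold changes with CCl4 were -1.80 and 2.29 (adjusted p = 0.242 and 0.148 by edgeR). Its highest value was in sgBap1-CCl4 2, the mouse that also stood apart in 8 adipocyte markers, of which 3 were tested. Their sum, led there by Fabp4, was 549 CPM in this mouse against at most 30.6 in the other treated mice and 5.82 to 7.90 in vehicle mice, and 0 of the 8 were without counts in it. The sum of 10 stellate cell markers, led there by Col3a1, was also highest in this mouse, at 1849 CPM against 827 and 635 in the others of its group. Without this mouse 39 conjugation genes in place of 40 changed in sgBap1 livers, with Ugt2b5 lost.

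Levels between genes were compared as CPM per kilobase of merged exon. On this scale the sum of the Gst genes (mean ± SD) was 3166 ± 361 in NTC-Veh (n = 2), 3717 ± 43.4 in sgBap1-Veh (n = 2), 2560 ± 847 in NTC-CCl4 (n = 3) and 2543 ± 310 in sgBap1-CCl4 mice (n = 3). The 2nd NTC-CCl4 mouse, at 3528, lay within the range of the vehicle mice. The Ugt genes summed to 2079 ± 0.752, 2288 ± 95.9, 917 ± 152 and 880 ± 173, and the Sult genes to 912 ± 64.3, 1119 ± 52.3, 160 ± 36.3 and 162 ± 24.3, in the same order of groups. In these 2 families no treated mouse reached a vehicle mouse. With CCl4 the family sums were thus 80.9% (Gst), 44.1% (Ugt) and 17.5% (Sult) of the vehicle level in NTC livers and 68.4%, 38.5% and 14.4% in sgBap1 livers. With library size alone in place of TMM, chosen for the sums after seeing them, they were 112% (Gst), 61.2% (Ugt) and 24.4% (Sult) in NTC and 95.3%, 53.2% and 20% in sgBap1 livers, so the direction of the Gst sum in NTC livers turned, as that of the Gst median did (0.000603). These sums were not tested.

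The leading gene of a family depended on treatment and in part on the length used. Per kilobase of merged exon, Mgst1 led the Gst genes in NTC-Veh livers at 1177, before Gstm1 at 759 and Gsta3 at 282, and Gstm1 led in NTC-CCl4 livers at 858, before Gstp1 at 631 and Mgst1 at 497. Ugt1a1 led the Ugt genes in NTC-Veh livers at 509 and Ugt2b5 in NTC-CCl4 livers at 272. Sult1a1 led the Sult genes in all groups, and its share of their summed level was 38.1% with vehicle and 74.6% with CCl4 in NTC livers, and 37.8% and 80.8% in sgBap1 livers. With median transcript length in place of merged exon length, Ugt2b36 led the Ugt genes in all groups, at 610 in NTC-Veh and 342 in NTC-CCl4 livers. On that scale Sult2a8 led the Sult genes with vehicle (42.2% of their sum in NTC and 31.3% in sgBap1 livers) and Sult1a1 with CCl4 (67.7% and 73.3%), while Mgst1 led the Gst genes with vehicle and Gstm1 (NTC) or Gstp1 (sgBap1) with CCl4.

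**Figure D3:**
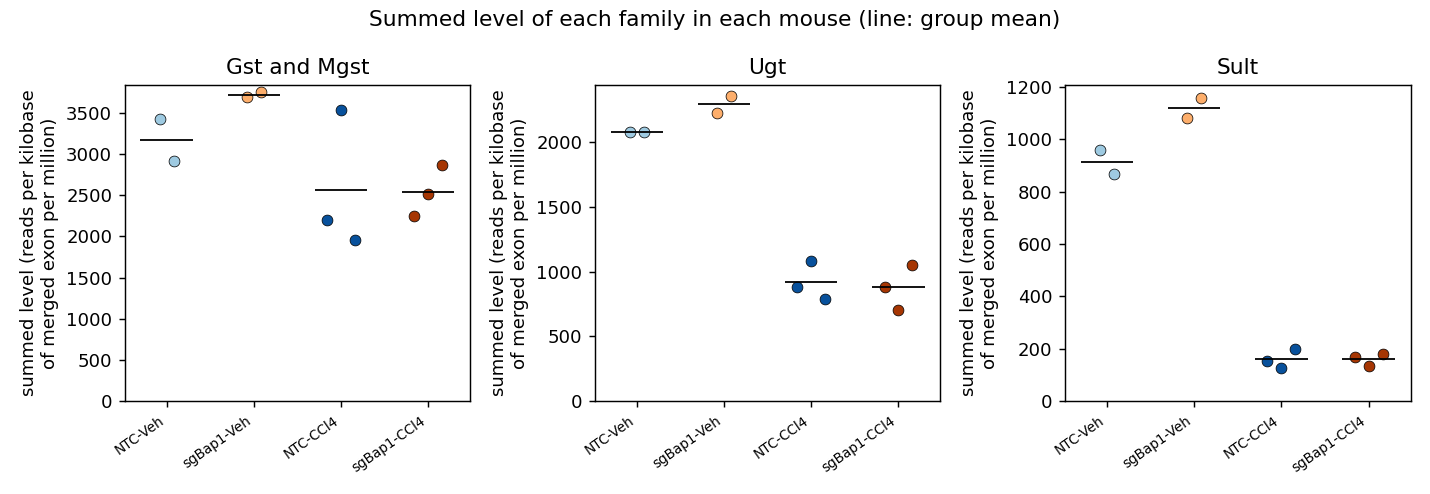
The summed level of each family, in CPM per kilobase of merged exon (vertical axes, each starting at 0), is plotted for each mouse of the 4 groups, with a line at the group mean. The Ugt and Sult sums of the 6 CCl4-treated mice lie below all vehicle mice, while the Gst sum of 1 treated mouse, at 3528, lies among them.

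The next question was whether the Bap1 guide changed the conjugation genes without injury. These comparisons use the same vehicle and CCl4 groups as those of treatment, so a chance deviation in a group enters both. In sgBap1-Veh against NTC-Veh livers 1 of the 55 genes rose, Ugt1a9, and 0 fell, beside 0.364% of all tested genes that rose and 0.159% that fell. Before adjustment 6 of the 55 and 2139 of all 17015 genes had a p under 0.05, and DESeq2's Wald test called 3 of the 55, which were Ugt1a9, Gsta1 and Ugt1a7c, all higher, beside 548 of the 15058 genes it tested. The median log2 fold change was 0.19, beside 0.0197 for all genes.

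Ugt1a9 had 84.7 and 61.7 CPM in NTC-Veh and 190 and 180 in sgBap1-Veh mice. The groups did not overlap, and the log2 fold change was 1.33 (SE 0.195, adjusted p = 0.0309 by edgeR). Without NTC-Veh 2, sgBap1-Veh 1, sgBap1-Veh 2 or NTC-CCl4 2 the adjusted p was 0.162, 0.149, 0.0751 and 0.0522, with log2 fold changes of 1.12 to 1.37. The Ugt1a sum differed little between these groups (log2 fold change 0.10, SE 0.181, adjusted p = 0.895 by edgeR), and 62.0% of the 50-base stretches of Ugt1a9 occur in other genes, most of them in Ugt1a10. Ugt1a7c had 4.57 and 4.63 CPM in NTC-Veh and 8.18 and 9.66 in sgBap1-Veh mice (log2 fold change 0.95, adjusted p = 0.112 by edgeR), and Gsta1 had 0.136 and 0.111 against 0.942 and 1.05 (2.97, SE 1.37, adjusted p = 0.435). Marker sums of Kupffer cells, 10 genes led by Cd5l with 0 of them at 0 counts, were 340 and 219 CPM in NTC-Veh and 662 and 442 in sgBap1-Veh mice. Of these 10 markers 1 rose in this comparison. In the same order, sums were also higher for T or NK cells (6.21 and 2.91, then 9.66 and 9.88) and B cells (18.5 and 10.81, then 39.9 and 28.3). So were those of dividing cells (8.28 and 7.93, then 16.1 and 12.01) and recruited monocytes and macrophages (116 and 103, then 179 and 157). Hepatocyte sums were lower (173800 and 141700, then 127900 and 133400). Of these other lists 0 markers passed. The part of all these markers in the values of Ugt1a9 was not tested.

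In sgBap1-CCl4 against NTC-CCl4 livers 1 of the 55 genes rose, Sult1d1, and 0 fell, beside 0.147% of all tested genes that rose and 0.106% that fell. Before adjustment 12 of the 55 and 2288 of all 17015 genes had a p under 0.05, and DESeq2 called 5 of the 55, with Gstm4, Gstm5, Gstt1 and Sult2a2 lower and Sult1d1 higher, beside 480 of the 15567 genes it tested. The median log2 fold change was -0.0883, and -0.0861 with genes at the floor set to their bound, beside 0.00181 for all genes. Sult1d1 had 26.7, 28.7 and 29.9 CPM in NTC-CCl4 and 39.1, 38.9 and 41.5 in sgBap1-CCl4 mice, without overlap (log2 fold change 0.49, SE 0.0764, adjusted p = 0.0367 by edgeR). Leaving out any 1 of the 6 CCl4-treated mice or either NTC-Veh mouse ended this call, with adjusted p of 0.214, 0.0867 and 0.0838 without NTC-CCl4 1, 2 and 3, of 0.118, 0.0712 and 0.0691 without sgBap1-CCl4 1, 2 and 3, and of 0.0581 and 0.057 without NTC-Veh 1 and 2. With library size alone it was 0.0531, and with only the 6 treated mice in the model 0.0684. In these fits the log2 fold change stayed between 0.45 and 0.53. Gstm5, a mu class gene chosen after its values were seen, had 9.96, 11.9 and 8.35 CPM in NTC-CCl4 and 6.85, 7.60 and 6.50 in sgBap1-CCl4 mice (-0.53, adjusted p = 0.138 by edgeR), and with vehicle it was at -0.58 (adjusted p = 0.165).

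The interaction asks whether CCl4 changed a gene by a different amount in the 2 genotypes. In edgeR's quasi-likelihood test 0 of the 55 genes passed, beside 0% of all tested genes in each direction. Before adjustment 11 of the 55 genes and 1796 of all 17015 had a p under 0.05, and DESeq2 called 3 of the conjugation genes, Ugt1a9, Sult2a2 and Sult2a5, all with a negative interaction, beside 406 of the 15058 genes it tested. The smallest adjusted p was 0.0793 (0.033 with no filter beyond 1 count) for Ugt1a9, which had 110, 92.2 and 90.2 CPM in NTC-CCl4 and 84.4, 89.3 and 120 in sgBap1-CCl4 mice after its difference with vehicle. It fell with CCl4 in sgBap1 livers (-0.92, SE 0.172, adjusted p = 0.00123 by edgeR), and the interaction was -1.33 (SE 0.248). For Sult2a2 the interaction was -4.37 (SE 1.01, adjusted p = 0.174 by edgeR) and for Gstk1 -0.46 (SE 0.190, adjusted p = 0.429). The median interaction of the 55 genes was -0.39, beside -0.016 for all genes.

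**Figure D4:**
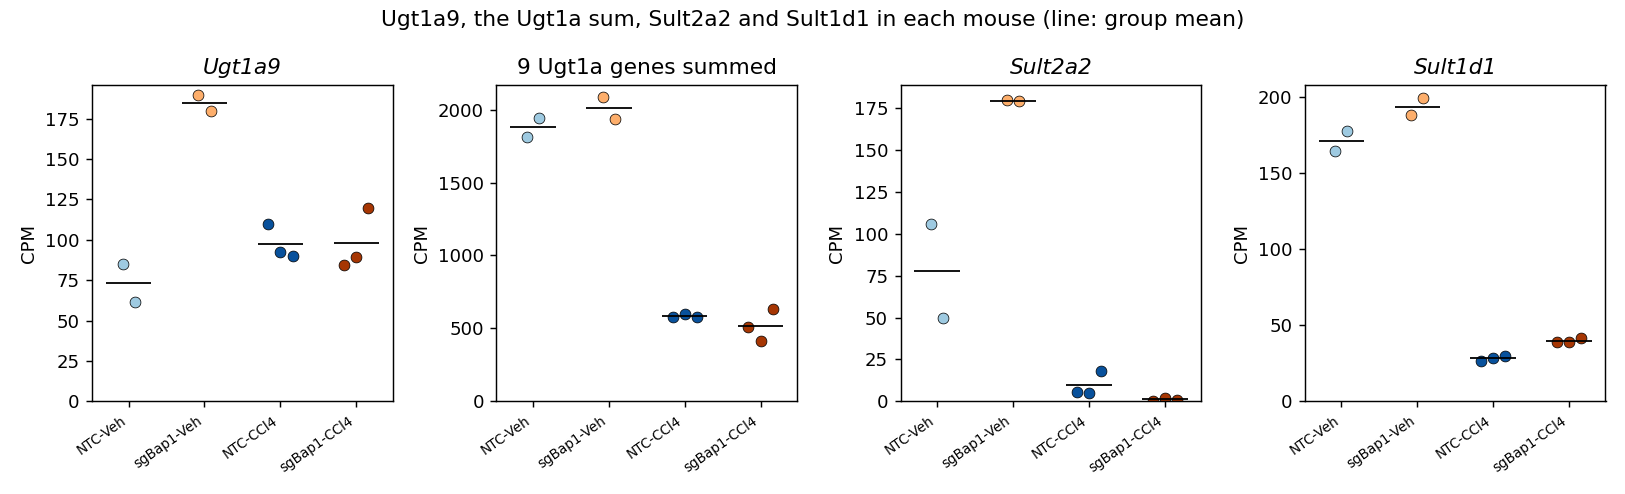
CPM (vertical axes, each starting at 0) of Ugt1a9, the sum of 9 Ugt1a genes, Sult2a2 and Sult1d1 are plotted for each mouse of the 4 groups, with a line at each group's mean. Ugt1a9 is high in both sgBap1-Veh mice at 190 and 180 while the Ugt1a sum of these mice lies near that of NTC-Veh mice, and Sult1d1 is slightly higher in all 3 sgBap1-CCl4 than in all 3 NTC-CCl4 mice.

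Genes around the conjugation step were examined by list. Of 13 tested genes of glutathione supply, 5 rose and 5 fell with CCl4 in NTC livers and 5 rose and 4 fell in sgBap1 livers (medians -0.25 and -0.25). Gclc rose in NTC livers (1.43, SE 0.438, adjusted p = 0.0229 by edgeR), with 173 and 144 CPM in NTC-Veh and 292, 732 and 258 in NTC-CCl4 mice, and Gclm, for the regulatory subunit, fell from 206 and 215 to 133, 165 and 130 (-0.56, adjusted p = 0.00323). Gss and Gsr, for the last step of synthesis and for the recycling of glutathione, rose in both genotypes. Of 7 genes of UDP-glucuronic acid supply, 2 rose and 0 fell in NTC livers and 2 rose and 3 fell in sgBap1 livers, and Ugdh, which makes the donor, had 99.8 and 135 CPM in NTC-Veh mice, 221 and 208 in sgBap1-Veh mice, 115, 255 and 111 in NTC-CCl4, and 148, 171 and 194 in sgBap1-CCl4 mice without passing in any comparison. Of 7 genes of sulfate donor supply, 1 rose and 4 fell in NTC and 2 rose and 4 fell in sgBap1 livers. Papss2, the liver's main synthase of the donor PAPS, had 393 and 449 CPM in NTC-Veh and 125, 87.8 and 110 in NTC-CCl4 mice and fell by -1.97 (SE 0.150, adjusted p = 4.25e-06 by edgeR) and -2.55 in sgBap1 livers, while Papss1 rose by 0.94 and 0.75.

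Enzymes of other conjugation reactions moved with the transferases. Of 16 tested, which add methyl, acetyl or amino acid groups, 15 fell and 0 rose in each genotype (edgeR), with medians of -1.17 and -1.66. Inmt, a methyltransferase, fell by -3.13 and -4.30, and it was the 1 gene of this list to pass between the genotypes, higher in sgBap1-Veh at 798 and 712 CPM than in NTC-Veh livers at 351 and 384 (1.04, SE 0.136, adjusted p = 0.0172 by edgeR). Of 20 phase I genes, 17 fell in NTC and 20 in sgBap1 livers, with medians of -1.79 and -1.76, and Cyp2e1, which activates CCl4, went from 10200 and 9289 CPM in NTC-Veh to 133, 222 and 202 in NTC-CCl4 mice. Of 9 transporters that export conjugates, 4 rose and 3 fell in NTC and 3 rose and 3 fell in sgBap1 livers, with Abcc1 and Abcc4 higher (3.08 and 2.81 in NTC livers) and Abcc2, Abcc3 and Abcc6 lower.

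Of 14 sensors and their partners, 2 rose and 8 fell in NTC and 2 rose and 9 fell in sgBap1 livers, with medians of -0.75 and -0.51. Nr1i3, which encodes CAR, had 527 and 536 CPM in NTC-Veh mice, 399 and 518 in sgBap1-Veh mice, 79.8, 127 and 84.6 in NTC-CCl4, and 59.6, 44.0 and 81.8 in sgBap1-CCl4 mice. It fell by -2.45 (SE 0.268, adjusted p = 5.14e-05 by edgeR) and -2.89 (SE 0.271, adjusted p = 1.94e-05), and Nr1i2 (PXR), Ahr and Rxra fell in both genotypes too. Of 15 tested genes known to respond to NRF2, 9 rose and 2 fell in NTC livers and 5 rose and 2 fell in sgBap1 livers, with medians of 0.92 and 0.38. Srxn1 had 48.9 and 50.9 CPM in NTC-Veh and 135, 368 and 135 in NTC-CCl4 mice, again highest in the 2nd, and rose by 2.09 and 1.84. This list shares Gclc, Gclm, Slc7a11 and G6pdx with that of glutathione supply.

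Of 18 genes with a known female bias in mouse liver, 16 fell and 1 rose in NTC and 18 fell in sgBap1 livers, with medians of -2.86 and -3.51, and of 13 tested male-biased genes 7 fell and 1 rose, and 6 fell and 1 rose, with medians of -1.53 and -0.85. Most genes of both liver zones fell. Of 15 pericentral and 15 periportal genes, 12 and 12 fell and 1 and 2 rose in NTC livers, and 13 and 13 fell and 1 and 1 rose in sgBap1 livers, with medians of -1.74 and -1.92, and -1.66 and -2.05. The periportal list includes Sult5a1 and, like the hepatocyte markers, Cps1. The pericentral and phase I lists share Cyp2e1, so such lists are not independent. With vehicle, and with CCl4 between the genotypes, at most 1 gene of any of these 12 lists passed.

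**Figure D5:**
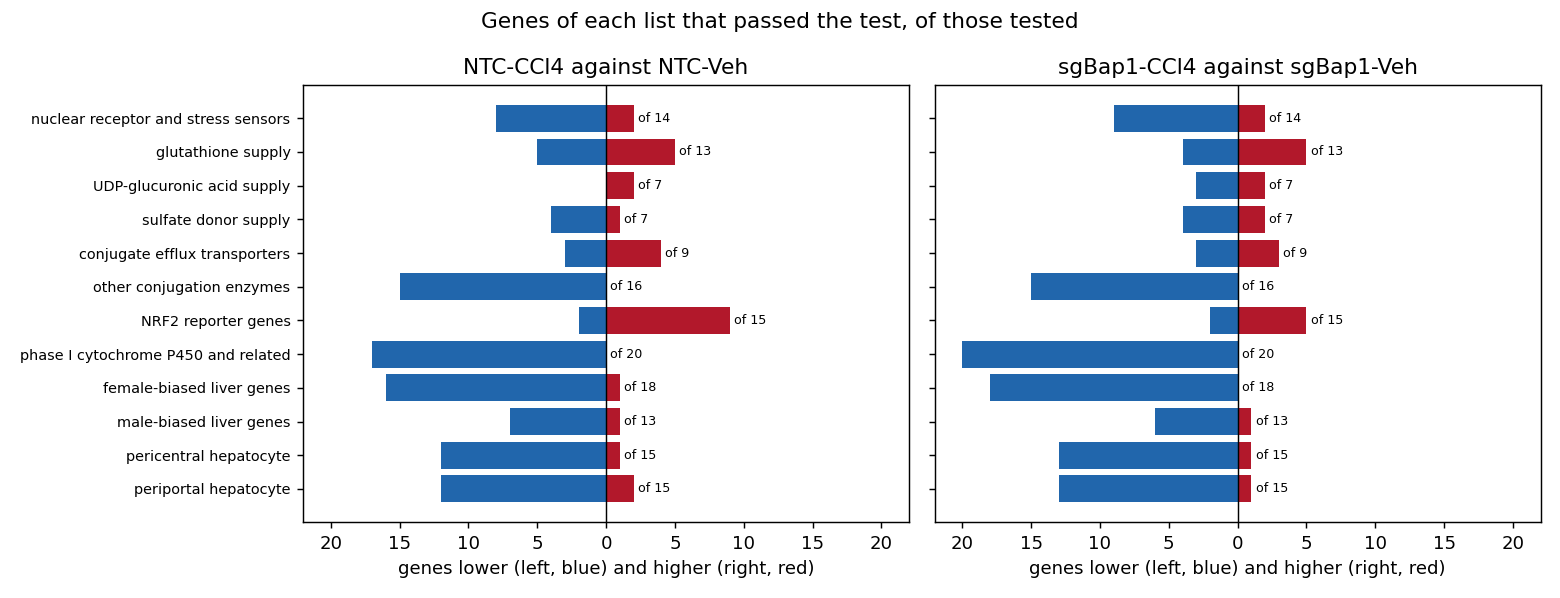
For each list of related genes, bars give the number of tested genes that fell (left, blue) and rose (right, red) with CCl4 in NTC (left panel) and sgBap1 livers (right panel), with the number tested beside them. Other conjugation enzymes and phase I genes have bars to the left alone, and the genes known to respond to NRF2 have the longest bar to the right, at 9 of 15 in NTC livers.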

How the data were processed

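The values are estimated counts (expected counts) per gene symbol that the authors deposited, made per their methods by aligning paired reads to GRCm38 with STAR 2.7.6a and quantifying them with Salmon 1.4.0. Of the values, 9.22% were not whole, and these were rounded to whole numbers before the tests of both edgeR and DESeq2. Genes were kept by edgeR's filterByExpr with the 4 groups, which left 17015 of 55291. Libraries were scaled by TMM, with factors of 0.786 to 1.24, and 1 model of 4 group means was fitted with edgeR 4.0.16 (robust quasi-likelihood) in R 4.3.3. Each contrast and the interaction were tested two-sided with Benjamini-Hochberg adjustment over all tested genes at 0.05. The standard error is the absolute log2 fold change divided by the square root of F. Alternatives were DESeq2 1.42.0, its size factors, library size alone, 2 other filters, replicate number as a block, only the compared mice, Ugt1a genes summed, each mouse left out and, for family sums, median transcript length. Genes were named by rule: per comparison up to 8 per direction with the largest changes, among those that passed without overlap of groups and with a mean of at least 100 counts; in each family the 3 of highest level per length; and in each family the 1 of smallest interaction p at that count. Levels per length use merged exons of GENCODE vM21, where the authors used vM25. The genes and lists were chosen with earlier results of these data known. The values of 1 gene and matches to 1 promoter motif are not reported here.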

Additional observations from a re-analysis of the deposited data

Results flagged for a closer look

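For 4 conjugation genes log2 fold changes had opposite signs between groups, with no overlap between mice in either comparison. The same count over all tested genes is not given, so this may not be particular to the conjugation genes. The interaction did not pass edgeR's test for any of them. Among these opposite effects only the fall of Ugt1a9 with CCl4 in sgBap1 livers passed edgeR's test (adjusted p = 0.00123). DESeq2's Wald test called the interaction of Ugt1a9, Sult2a2 and Sult2a5 (adjusted p = 0.000174, 0.00848 and 0.0495). With no filter beyond 1 count, Ugt1a9 also passed edgeR's interaction test (adjusted p = 0.033). Genes whose effects went opposite ways with overlapping mice are not listed. Ugt1a9 was higher with CCl4 in NTC livers (log2 fold change 0.41) and lower in sgBap1 livers (-0.92), with an interaction of -1.33 (adjusted p = 0.0793 by edgeR's quasi-likelihood test). Sult2a1 was higher in sgBap1 than NTC livers with vehicle (1.38) and lower with CCl4 (-2.89), with an interaction of -4.27 (adjusted p = 0.300). Sult2a2 showed the same order, 1.21 with vehicle and -3.17 with CCl4, with an interaction of -4.37 (adjusted p = 0.174). Sult2a5 did so too, 1.09 with vehicle, with an interaction of -4.01 (adjusted p = 0.249), a fitted value that is no bound because sgBap1-CCl4 mice had 0 to 2 counts. Its lowest NTC-CCl4 mouse also had 2 counts, so with CCl4 these groups are apart by library scaling alone. The 3 Sult2a genes share sequence, so their values are not independent.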

How the results depend on the processing

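No log2 fold change that passed for a conjugation gene changed sign in any setting. The 39 conjugation genes changed by CCl4 in NTC livers were 36 to 40, and the 40 in sgBap1 livers 39 to 44, with single mice left out. The number changed between genotypes with vehicle was 1, and it was 3 with DESeq2, 0 with the Ugt1a genes summed and 0 to 1 with each mouse left out. With CCl4 it was 1, and it was 5 with DESeq2, 0 with library size alone, 0 with only the compared mice and 0 to 1 with each mouse left out. The number with an interaction was 0, and it was 3 with DESeq2 and 1 without a filter on low counts. The log2 fold change of Bap1 with vehicle ranged from -0.99 to -0.84 with each mouse left out. With CCl4 it ranged from -0.75 to -0.57, and it was -0.63 with library size alone and -0.65 with only the compared mice, where the call was lost (adjusted p = 0.0621 and 0.0715 by edgeR's quasi-likelihood test). With replicate number as a block, the genes changed between genotypes were 0 with vehicle and 0 with CCl4, and Bap1 was at -0.91 and -0.66, no longer called (adjusted p = 0.0713 and 0.0618). The block also ended the calls with CCl4 of Gstp2 (0.0653), Mgst3 (0.0931) and Sult1c2 (0.0515) in NTC livers and of Ugt2b5 (0.0965) in sgBap1 livers. The deviations of equally numbered CCl4-treated mice of the 2 genotypes correlated at -0.0132, -0.000226 and -0.23, so the numbers need not mark pairs. Of all tested genes, 89 differed between genotypes with vehicle, against 548 with DESeq2, 177 without the filter, 47 with library size alone, 35 with only the compared mice, 1 with the block and 0 to 150 with each mouse left out. With CCl4, 43 differed, against 480 with DESeq2, 113 without the filter, 3 with the block and 1 to 49 with each mouse left out. For the interaction it was 0, against 406, 103 without the filter, 8 with library size alone and 0 to 12 with each mouse left out. Family totals with the median transcript length in place of merged exon length were 7286, 8462, 5344 and 5271 (Gst), 2784, 3144, 1215 and 1187 (Ugt) and 1472, 1623, 206 and 208.5 (Sult) in the groups in the order NTC with vehicle, sgBap1 with vehicle, NTC with CCl4, sgBap1 with CCl4. With library size alone, tried after the sums were seen, they were 2583, 3057, 2904 and 2913 (Gst), 1701, 1881, 1041 and 1001 (Ugt) and 745.3, 920.3, 181.9 and 184.2 (Sult). The cause of these differences between settings was not tested. Leaving a vehicle mouse out leaves 1 mouse in that group, which is then assumed to vary like the others.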
